A study of Pinus pinaster with 21 samples.

Results

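The small RNAs described here are the low-abundance members of the set that every full library of this series listed. They were chosen on measured values: an identifier had to have a count above 0 in each of 17 libraries of pine root small RNA and a median level below 100 CPM (the count divided by the total of its library and multiplied by 1000000). The rule kept 143 identifiers, which are 34.4% of the 416 listed by all 17 libraries and are drawn from 32711 identifiers in the table. Because presence and level chose them, both are given below as description, without a test.

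The study followed small RNAs in roots of maritime pine (Pinus pinaster, provenance Segura-Alcaraz) after a supply of ammonium. All seedlings were 1 month old and had been acclimated for 3 days with a nitrogen-free nutrient solution. Irrigation with 80 mL followed, either of NH4Cl at 3 mM or 0.1 mM, or of plain water as the control. Roots of 10 seedlings were pooled for each library, and the whole experiment was run 3 independent times, so that a replicate number names an experiment. The 17 libraries were 3 each for 3 mM, 0.1 mM and water at 2 h, 2 for 3 mM at 24 h (experiments 1 and 3), 2 for 0.1 mM at 24 h (experiments 2 and 3), 3 for water at 24 h, and 1 taken before irrigation (experiment 2). A library is a pool of whole roots, so fewer cells of a type and less RNA per cell cannot be told apart in any value below.

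Plant small RNAs of this size class include microRNAs, cut from hairpin precursors by a Dicer-like enzyme, and short interfering RNAs, made from double-stranded RNA. Bound to an Argonaute protein, a microRNA guides the cleavage or translational repression of a messenger RNA with a matching site, while many short interfering RNAs direct DNA methylation at the loci they match. In roots of other plants, several microRNA families respond to the nitrogen supply and act on transport and root branching. The identifiers in this table are serial labels that the files do not pair with a sequence, a family or a target, so no role can be given for any single member and no sequence is shown.

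The 17 libraries held between 5947601 and 9603954 counts. The 143 members together held 0.524% to 0.851% of a library (median 0.735%), while all 416 shared identifiers held 51.5% to 62.3%. The other 4 libraries (replicate 2 of 3 mM and replicate 1 of 0.1 mM, both at 24 h, and replicates 1 and 3 before irrigation) listed few of the members and are taken up at the end. No count lies between 0 and 5 in the table, so a 0 means that a library does not list the identifier.

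The members spanned median levels of 3.604 to 99.7 CPM. Their own median was 45.6 CPM, with quartiles of 28.7 and 71.8 CPM. Of the 143, 65 members had a median from 50 to 100 CPM and 59 from 20 to 50 CPM. Another 12 lay between 10 and 20 CPM, 4 between 5 and 10 CPM and 3 below 5 CPM. The 5 lowest were MIR_4518 at 3.604 CPM, MIR_565 at 4.04 CPM, MIR_320 at 4.68 CPM, MIR_4403 at 5.01 CPM and MIR_259 at 5.38 CPM. At the top, MIR_1277 stood at 97.3 CPM and MIR_1243 at 96.0 CPM. The limit fell within a continuous run of levels: MIR_5095 at 99.5 CPM, MIR_1299 at 99.5 CPM and MIR_4970 at 99.7 CPM were the last inside, and MIR_1307 at 100.3 CPM, MIR_5019 at 102.8 CPM and MIR_4949 at 103.5 CPM were the first outside.

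The smallest count a member had in any of the 17 libraries ranged from 10 to 586, with a median of 233. The coefficient of variation (CV, the SD divided by the mean) over the 17 libraries had a median of 19.9%, against a median of 5.30% from counting error alone. For 113 members the observed CV was more than 3 times the counting CV. The other 273 shared identifiers had a median CV of 19.7%.

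**Figure D1:**
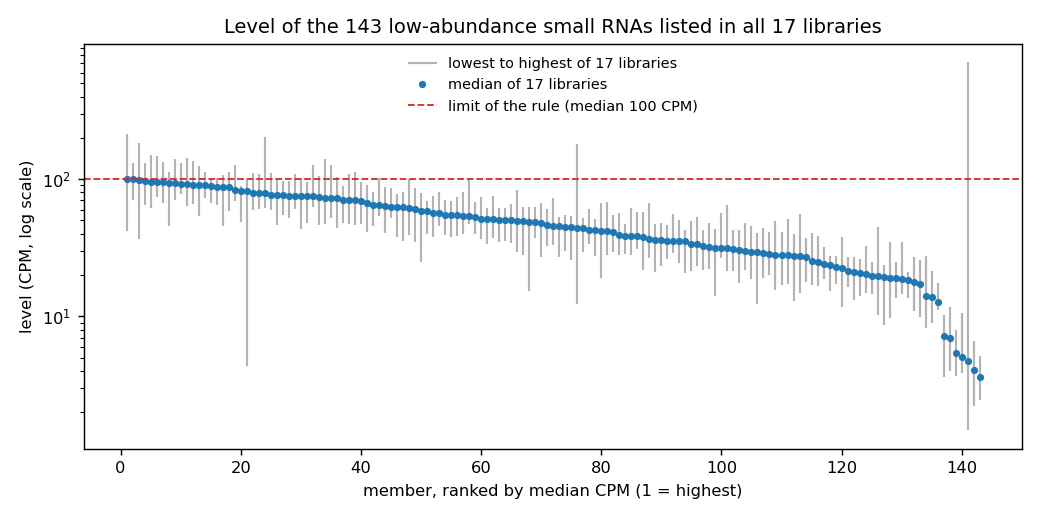
Level of each of the 143 members, ranked by median (horizontal axis) and given in CPM of the library total on a log scale (vertical axis), where points are medians of 17 libraries and grey bars run from the lowest to the highest library. Most bars span less than 3-fold, and those of MIR_320 (484-fold), MIR_743 and MIR_143 (14.7-fold) are the 3 that span more than 10-fold.

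Most members varied less than 3-fold across libraries. In CPM, 3 mM at 24 h replicate 1 was the lowest library for 60 members. After the trimmed mean of M values (TMM) scaling used below, it was the lowest for 4. The highest library was less than 2 times the lowest for 54 members and less than 3 times for 124. MIR_4935 had the smallest CV, 10.8%, and lay between 64.8 CPM in water at 2 h replicate 1 and 101.5 CPM in 3 mM at 2 h replicate 1. The next smallest CVs were those of MIR_1477 (11.9%), MIR_4671 (13.0%), MIR_4345 (13.2%) and MIR_4993 (13.2%). Behind MIR_320 and MIR_143, the largest were those of MIR_4970 (45.6%), MIR_5095 (45.5%) and MIR_247 (43.4%).

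The widest member was MIR_320, with a CV of 289%. It stood at 711.7 CPM (5534 counts) in water at 2 h replicate 2, at 92.9 CPM in 0.1 mM at 2 h replicate 1, at 74.99 CPM in 3 mM at 2 h replicate 1 and at 45.1 CPM in 3 mM at 2 h replicate 3. The other 13 libraries held 1.47 to 15.1 CPM. These 4 high libraries came from all 3 treatments at 2 h and from all 3 experiments, and each of the 3 groups at 2 h also held a library below 5 CPM. A value above those 13 was also seen outside 2 h. Among the left-out libraries, replicate 1 before irrigation held 35.9 CPM (251 counts). Replicate 3 before irrigation held 17.7 CPM (59 counts), but the members it listed had a median CPM of 2.01 times their usual one. Its 59 counts lay below the 110 counts of 3 mM at 24 h replicate 3, so it cannot be read as high. The left-out libraries at 24 h did not list MIR_320.

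MIR_743 was low in a single library. It stood at 4.36 CPM (41 counts) in 3 mM at 24 h replicate 1 and between 66.0 and 98.0 CPM in the other 16, so its value there was 18.8 times below its median of 82.0 CPM. The other 3 mM library at 24 h, replicate 3, stood at 94.7 CPM. MIR_1375 showed a smaller departure of this kind, with 15.4 CPM in replicate 2 before irrigation and 37.3 to 62.5 CPM in the other 16 libraries. Replicate 1 before irrigation, a left-out library, held 60.3 CPM (421 counts), and replicate 3 before irrigation did not list it. The low value was seen in 1 library, and whether it goes with the time before irrigation was not tested. Only MIR_320, MIR_143, MIR_743 and MIR_1375 had any library more than 3-fold from their own median, and these made up 12 of the 2431 values. MIR_743 was singled out after its values were seen.

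The first comparison was between sampling times. Counts of all 416 shared identifiers were scaled with trimmed mean of M values (TMM) factors and tested with edgeR's quasi-likelihood test, with p-values adjusted over the 416 (Benjamini-Hochberg) and called under 0.05. At 24 h (7 libraries), averaged over the treatments, 1 of the 143 members was higher than at 2 h (9 libraries) and none was lower. Over all 416 identifiers the same rule called 0.24%. At an unadjusted p under 0.05 there were 13 members (6.73% of the 416 identifiers passed that), and limma, run on the same scaled values, also called 1. This fit leaves the experiment out. With the experiment as a block, 22 members had an unadjusted edgeR p under 0.05, beside 46 of the 416 identifiers. At 24 h, 3 mM lacks experiment 2 and 0.1 mM lacks experiment 1, so time and experiment are partly mixed within each dose. Of the members, 65 were higher and 78 lower at 24 h, with a median log2 difference of -0.0145, against -0.0032 over the 416. TMM scaling centres the shared set near 0, so these values cannot show whether the members moved together. The 95% interval stayed between -1 and 1 log2 units for 139 of the members.

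**Figure D2:**
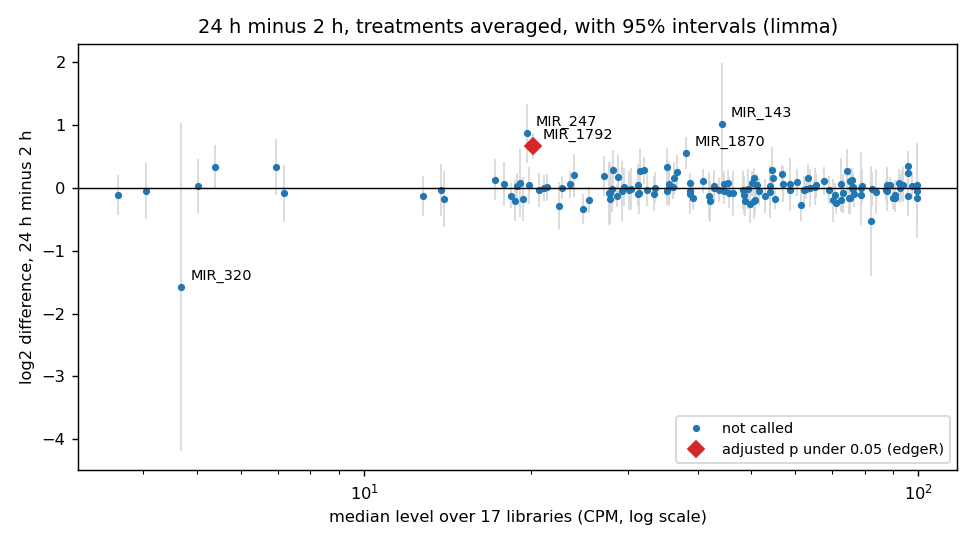
The log2 difference of each member, 24 h minus 2 h with treatments averaged (vertical axis), against its median CPM (horizontal axis, log scale), where vertical bars are 95% intervals from limma. The called member, MIR_1792 (diamond), lies at 0.67, MIR_1870 and MIR_247 lie near it, and MIR_320 has the widest interval.

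The called member was MIR_1792. At 24 h it held 22.7 and 32.4 CPM in the 3 mM libraries, 26.4 and 28.2 CPM in the 0.1 mM libraries and 24.3, 23.2 and 30.1 CPM in the water libraries. At 2 h it held 15.7, 18.5 and 16.99 CPM with 3 mM, 14.8, 15.6 and 18.6 CPM with 0.1 mM and 17.4, 20.2 and 18.3 CPM with water. Every library at 24 h lay above every library at 2 h, with no overlap. This held for 1 of the 143 members and for 0.24% of the 416 identifiers. The single library before irrigation, at 22.0 CPM, lay above all 9 at 2 h and below all at 24 h.

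MIR_1792 averaged 26.8 ± 3.65 CPM at 24 h (SD, n = 7) and 17.3 ± 1.75 CPM at 2 h (SD, n = 9). On the TMM scale it rose by 0.67 log2 units (SE 0.10, 95% interval 0.45 to 0.88, edgeR adjusted p = 0.00329). Within single treatments the difference was 0.84 log2 units with 3 mM (adjusted p = 0.0914), 0.68 with 0.1 mM (adjusted p = 0.62) and 0.47 with water (adjusted p = 0.509), and none of these passed alone in edgeR. No member was called within a treatment. Unadjusted p under 0.05 was reached by 8 members with 3 mM (3.37% of the 416 identifiers), 11 with 0.1 mM (5.53%) and 10 with water (4.33%). Whether the treatments differ in this was not tested for the single doses. In the test of whether ammonium minus water changed between 2 h and 24 h, no member was called.

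Dropping any single library kept the call (17 refits, edgeR adjusted p between 0.000947 and 0.0233). Among the 3 refits that drop a whole experiment, the call was lost without experiment 1 (adjusted p = 0.0581) and without experiment 3 (adjusted p = 0.705), and held without experiment 2 (adjusted p = 0.0237). It was also lost when identifiers absent from some libraries were added to the fit.

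MIR_1870 was next. At 24 h it held 33.4 and 39.7 CPM with 3 mM, 50.0 and 42.6 CPM with 0.1 mM and 45.2, 57.2 and 38.9 CPM with water. At 2 h it held 22.8, 38.7 and 25.9 CPM with 3 mM, 21.6, 38.4 and 27.1 CPM with 0.1 mM and 26.3, 38.1 and 36.2 CPM with water. The times overlapped, because the 3 libraries of experiment 2 at 2 h (38.1 to 38.7 CPM) and water replicate 3 (36.2 CPM) lay above the lowest at 24 h. The means were 43.9 ± 7.84 CPM at 24 h (SD, n = 7) and 30.6 ± 7.14 CPM at 2 h (SD, n = 9).

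MIR_1870 differed by 0.56 log2 units (SE 0.12, 95% interval 0.30 to 0.82), with an edgeR adjusted p of 0.0902. With the experiment as a block in the same test, the adjusted p was 0.0249 and 2 members were called, MIR_1792 and MIR_1870, beside 0.481% of the 416 identifiers. The block left MIR_1792 at an adjusted p of 0.00315. Dropping single libraries without the block, MIR_1870 passed in 2 of 17 refits (adjusted p between 0.0405 and 0.253), those without 3 mM at 2 h replicate 2 and without water at 24 h replicate 3.

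MIR_247 had a larger difference and a wider spread. It averaged 32.2 ± 10.003 CPM at 24 h (SD, n = 7) and 17.3 ± 4.81 CPM at 2 h (SD, n = 9). The difference was 0.87 log2 units (SE 0.22) with an edgeR adjusted p of 0.187, and it passed in 1 of 17 such refits, without 3 mM at 2 h replicate 1. In 3 mM replicate 1 (18.3 CPM) and 0.1 mM replicate 3 (21.6 CPM) at 24 h it lay within the 10.2 to 25.9 CPM of the 2 h libraries, while the other 5 libraries at 24 h held 29.6 to 44.7 CPM. MIR_143 had the largest positive difference, 1.01 log2 units (SE 0.45, 95% interval 0.04 to 1.98, edgeR adjusted p = 0.718), and its levels also varied with the experiment, as given below.

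**Figure D3:**
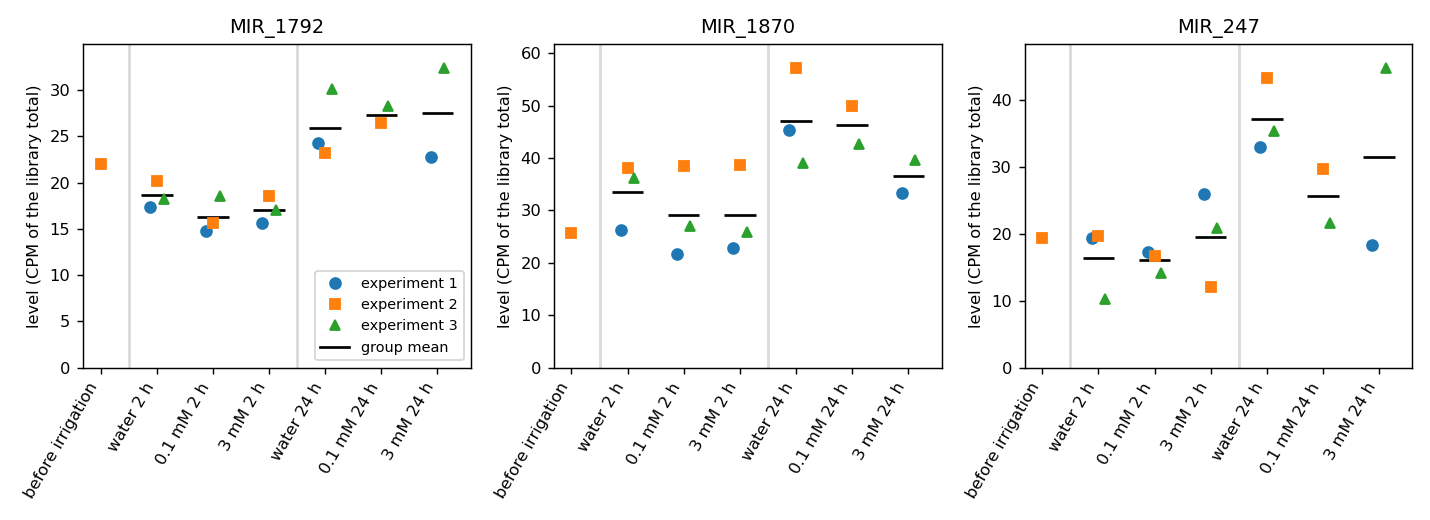
Levels of MIR_1792, MIR_1870 and MIR_247 in each of the 17 libraries (vertical axis, CPM of the library total) by group in order of time and dose (horizontal axis), with the experiment shown by symbol and colour and the group mean by a bar. MIR_1792 does not overlap between 24 h and 2 h, while MIR_1870 and MIR_247 do.

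Libraries of the same treatment and experiment at both times form 7 pairs. MIR_1792, MIR_1870 and MIR_143 were higher at 24 h in all 7 on the CPM scale, which is 3 of 143 members beside 0.962% of the 416 identifiers. MIR_4348, MIR_5351 and MIR_7139 were lower in all 7, beside 1.44% of the 416. On the TMM scale 5 members were higher in all 7 pairs (2.16% of the 416), with MIR_1321 and MIR_4665 added, and MIR_7139 alone was lower in all 7 (0.721% of the 416). Some pairs were nearly level on that scale. The smallest difference was 0.00047 log2 units for MIR_1870 (water, replicate 3), 0.013 for MIR_4665 (3 mM, replicate 3) and 0.030 for MIR_1321 (water, replicate 1).

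The other members named for their place in the order of p-values were not called. Those on the higher side at 24 h were MIR_133 and MIR_259 (0.34 log2 units each), MIR_5429 (0.33), MIR_4340 (0.28), MIR_5125 (0.21) and MIR_5214 (0.16). On the lower side, MIR_320 stood at -1.58 in limma (SE 1.21, 95% interval -4.18 to 1.03) and at -3.61 in edgeR. Its edgeR value was -1.49 without water at 2 h replicate 2 and -1.87 and -2.41 without experiments 2 and 1, and DESeq2 called it. Next came MIR_146 at -0.34, MIR_5420 at -0.29, MIR_7139 at -0.27 and MIR_5048 at -0.23. MIR_1375 (-0.21), MIR_4348 (-0.19), MIR_7136 (-0.19), MIR_5084 (-0.18) and MIR_5189 (-0.16) followed. Adjusted p in edgeR lay between 0.338 and 0.869 for these 16. Within single treatments, 24 h minus 2 h gave MIR_1352 at 0.44, MIR_5272 at -0.36 and MIR_1784 at -0.65 log2 units with 3 mM, MIR_5125 at 0.45, MIR_5084 at -0.46 and MIR_5048 at -0.40 with 0.1 mM, and MIR_247 at 1.22, MIR_146 at -0.58 and MIR_320 at -1.53 in limma (-5.24 in edgeR) with water. These values are from the fit without the experiment, which is partly mixed with time for both doses. For 0.1 mM the median log2 difference over the members was -0.058 without the block and -0.021 with it. In water alone, 10 members had no overlap between 24 h and 2 h in CPM, beside 5.77% of the 416 identifiers, and 11 on the TMM scale, beside 5.53%.

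The second set of comparisons addressed the ammonium supply. In edgeR, none of the 143 members was called for ammonium against water averaged over doses and times, for either dose against water at either time, for 3 mM against 0.1 mM at either time, or for the change of the ammonium difference between the times. The same test called 0.0% of the 416 identifiers in each. With the experiment as a block and with limma the counts were also 0. Left without 3 mM at 24 h replicate 3, edgeR called MIR_743 in 4 of these comparisons, each time through the single library of 3 mM at 24 h that remained, which is assumed to vary like the other groups. At an unadjusted p under 0.05 edgeR without the block gave 6 members for ammonium against water with doses and times averaged (4.09% of the 416 identifiers). Against water at 2 h it gave 7 for 3 mM (4.33%) and 3 for 0.1 mM (2.16%). Against water at 24 h it gave 5 for 3 mM (3.61%) and 1 for 0.1 mM (1.68%). Between the doses it gave 6 at 2 h (3.37%) and 4 at 24 h (2.4%), and for the change of the ammonium difference it gave 4 (1.68%).

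The intervals bound what could have been missed for single members. Because TMM scaling centres the shared set near 0, they cannot show a shift common to that set. Averaged over doses and times, 140 of 143 members had a 95% interval for ammonium minus water within 1 log2 unit of 0. At 2 h this held for 130 members with 3 mM and 131 with 0.1 mM. The intervals were wider at 24 h, where it held for 122 with 3 mM and 126 with 0.1 mM. Between the doses at 24 h it held for 116, and for the change of the ammonium difference for 117. Within 0.58 log2 units of 0 at 2 h were the intervals of 73 members with 3 mM and 77 with 0.1 mM. A change of an identifier between absent and present could not be seen, since the rule required a count in every library.

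MIR_5125 had the smallest p for the higher dose. At 2 h it held 65.3, 72.1 and 65.6 CPM with 3 mM, against 52.1, 53.8 and 53.5 CPM with water. The 0.1 mM libraries held 45.9, 53.5 and 53.1 CPM. All 3 libraries with 3 mM lay above the 6 others, and 16 of the 143 members had no overlap between 3 mM and water at 2 h, beside 9.86% of the 416 identifiers. The difference from water was 0.48 log2 units (SE 0.11, 95% interval 0.24 to 0.73, edgeR adjusted p = 0.342) and that from 0.1 mM was 0.49 (edgeR adjusted p = 0.392). DESeq2 called both differences. At 24 h its levels were 46.2 and 60.4 CPM with 3 mM, 75.9 and 69.4 CPM with 0.1 mM and 56.8, 80.9 and 68.7 CPM with water, so the 3 mM libraries no longer lay above the others.

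MIR_1388 was the lowest-p member at 24 h. It held 39.7 and 35.1 CPM with 3 mM, 74.6 and 83.2 CPM with 0.1 mM and 60.4, 85.7 and 73.3 CPM with water. Both 3 mM libraries lay below the other 5 at that time. The other library of 3 mM at 24 h, replicate 2, was left out. It held 630 counts of MIR_1388, against 373 and 273 counts in the 3 mM libraries used and a median of 451 over the 17. Its total was 1180505 counts, and the members it listed had 0.786 to 1.72 times their median count (median 1.18). Unscaled counts from it therefore cannot show whether MIR_1388 was lower there. The difference was -0.64 log2 units from water (SE 0.18, 95% interval -1.02 to -0.26, edgeR adjusted p = 0.997) and -0.75 from 0.1 mM (SE 0.19, edgeR adjusted p = 0.719), and DESeq2 called the difference between the doses. At 2 h it held 48.2, 55.6 and 68.2 CPM with 3 mM, against 66.3, 65.1 and 55.7 CPM with water, and these overlapped. The doses at 24 h rest on different experiments, so dose and experiment are partly mixed there.

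The number of members without overlap at 2 h depended on the scale. There was no overlap between 3 mM and 0.1 mM for 9 members in CPM (4.09% of the 416 identifiers) and 14 on the TMM scale (7.93%). Between 0.1 mM and water it was 4 members in CPM (2.88%) and 6 on the TMM scale (4.81%), and for 3 mM against water on the TMM scale 12 (8.65%). In plain CPM the median of the whole shared set differed between groups. With column totals the median of all 416 identifiers was -0.13 log2 units for 3 mM minus water at 2 h and -0.30 at 24 h. It was 0.01 at each time with TMM. For 0.1 mM minus water with column totals it was -0.05 at 2 h and 0.0005 at 24 h. As a share of the total, the TMM-corrected sum of the shared counts was lowest in libraries of experiment 1. These were 3 mM at 24 h (0.407), 3 mM at 2 h (0.464) and 0.1 mM at 2 h (0.467). Water of experiment 1 held 0.605 at 2 h and 0.521 at 24 h. Whether the shift goes with dose or experiment was not tested.

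Other members with small p for ammonium were not called either. At 2 h, MIR_5272 stood at 0.42 log2 units for 3 mM minus water, MIR_1347 at -0.34 and MIR_467 at -0.34. For 0.1 mM minus water they were MIR_1363 at 0.76, MIR_5084 at 0.29, MIR_4348 at -0.37 and MIR_423 at -0.32. For 3 mM minus 0.1 mM at 2 h they were MIR_768 at 0.38, MIR_467 at -0.32 and MIR_5531 at -0.56. At 24 h, 3 mM minus water gave MIR_1784 at -0.83, MIR_5503 at 0.35 and MIR_4993 at 0.26, and 0.1 mM minus water gave MIR_5090 at 0.63, MIR_1299 at -0.32, MIR_5084 at -0.30 and MIR_5214 at 0.26. For 3 mM minus 0.1 mM at 24 h they were MIR_1352 at 0.51, MIR_5153 at 0.35 and MIR_5272 at -0.42. Averaged over doses and times, ammonium minus water was 0.24 for MIR_5503, 0.22 for MIR_5272, -0.26 for MIR_4348 and -0.22 for MIR_1299. The change of that difference, 24 h minus 2 h, was 0.62 for MIR_4518, 0.26 for MIR_4993, -0.45 for MIR_5084 and -0.61 for MIR_5390.

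More members were called among the 3 independent runs of the experiment than in any treatment or time comparison. Within groups, 21 of 143 members (14.7%) differed among the experiments at an edgeR adjusted p under 0.05, beside 20.7% of the 416 identifiers, so the share was not above that of the whole set. On the TMM scale 13 of the 21 were highest in experiment 1, 5 in experiment 2 and 3 in experiment 3. This split depends on the scaling. With column totals in place of TMM, which move the median of all 416 identifiers by -0.32 log2 units for experiment 1 minus experiment 2 and by -0.21 for experiment 1 minus experiment 3, 30 members were called and 27 of them were lowest in experiment 1. Left without experiment 1 no member was called, without experiment 2 there were 12 and without experiment 3 there were 5. Dropping 1 library gave 13 to 21, with 13 after the loss of replicate 1 of 3 mM at 2 h, of replicate 2 of 0.1 mM at 2 h, and of replicate 3 of 0.1 mM at 24 h.

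MIR_413 had the smallest p, and its direction was the same under all 4 scalings tried. In TMM-scaled CPM (relative to the TMM-corrected sum of the shared counts, so that values are larger than in plain CPM) it averaged 255 ± 51.9 in experiment 1 (SD, n = 5), 131 ± 16.2 in experiment 2 (SD, n = 6) and 124 ± 13.6 in experiment 3 (SD, n = 6). Its lowest, median and highest library were 189, 255 and 333 in experiment 1, 109, 132 and 148 in experiment 2, and 105, 128 and 139 in experiment 3. Every library of experiment 1 lay above every library of the other experiments on this scale, while in plain CPM experiment 1 (87.7 to 201.6 CPM) overlapped experiment 2 (65.2 to 96.0 CPM). The difference was 0.93 log2 units for experiment 1 minus experiment 2 (SE 0.13) and 1.03 for experiment 1 minus experiment 3 (SE 0.12, edgeR adjusted p = 0.000573). Over the 4 scalings the difference between experiments 1 and 3 ran from 0.79 to 1.104 log2 units.

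MIR_143 ran the other way. It averaged 50.0 ± 29.3 TMM-scaled CPM in experiment 1 (SD, n = 5), 72.0 ± 38.4 in experiment 2 (SD, n = 6) and 161 ± 82.3 in experiment 3 (SD, n = 6). Experiment 1 minus experiment 3 was -1.54 log2 units (SE 0.29, edgeR adjusted p = 0.0069), and it lay between -1.78 and -1.47 under the 4 scalings. The lowest library of experiment 3 held 78.1 TMM-scaled CPM and the highest of experiment 1 held 89.1, so the 2 experiments overlapped slightly. MIR_408 (0.64 log2 units for experiment 1 minus experiment 3, adjusted p = 0.0063), MIR_5533 (0.69, adjusted p = 0.0069) and MIR_425 (0.48, adjusted p = 0.00804) were also higher in experiment 1. With column totals MIR_408 and MIR_425 no longer passed in edgeR, at adjusted p of 0.0604 and 0.386. The other 16 called were MIR_423, MIR_1457, MIR_1491, MIR_4665, MIR_4700, MIR_5173, MIR_5334, MIR_5420 and MIR_7057, highest in experiment 1 on the TMM scale, MIR_1680, MIR_4687, MIR_4965, MIR_5213 and MIR_7139, highest in experiment 2, and MIR_5046 and MIR_5326, highest in experiment 3.

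**Figure D4:**
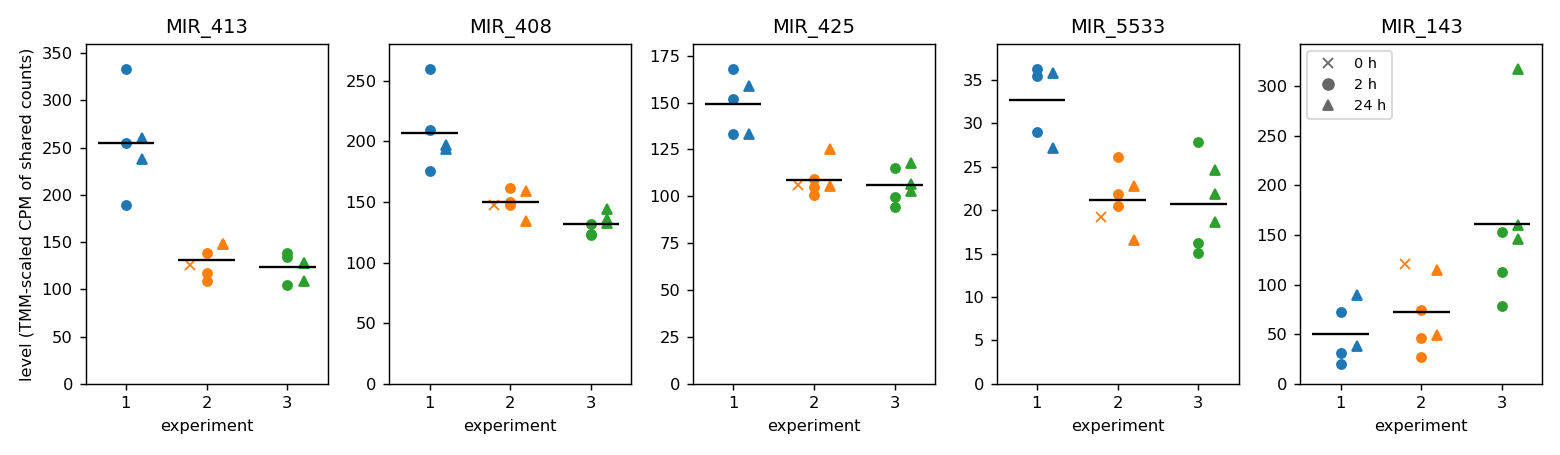
Levels of the 5 members with the smallest p for a difference among experiments (vertical axis, TMM-scaled CPM) by experiment (horizontal axis), with sampling time shown by symbol and horizontal bars for the mean of each experiment. On this scale MIR_413, MIR_408 and MIR_425 have their highest mean in experiment 1, and MIR_143 has its highest mean in experiment 3.

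The left-out libraries give a separate reading of these members, and they do not all go the same way. These readings are in plain CPM or counts, while the experiments were compared on the TMM scale. With column totals MIR_408 and MIR_425 were not called, so plain CPM cannot decide for these members. Replicate 1 before irrigation, of experiment 1, held 100.8 CPM of MIR_413, above the highest library of experiment 2 (96.0 CPM) and of experiment 3 (78.7 CPM). It held 116.9 CPM of MIR_408, above the 83.9 to 102.9 CPM of experiment 2 and the 69.9 to 81.9 CPM of experiment 3. The experiment 1 libraries used reached 126.9 CPM of MIR_408, but their range overlapped both other experiments in plain CPM. For MIR_143 replicate 1 before irrigation held 34.5 CPM, below the 44.2 to 179.8 CPM of experiment 3 and within the 12.2 to 36.3 CPM of the other experiment 1 libraries. For MIR_143, 2 other left-out libraries did not show the difference between experiments. In 0.1 mM at 24 h replicate 1, of experiment 1, it had 390 counts (126.4 CPM), above the 83 to 341 counts of the experiment 1 libraries used. In replicate 3 before irrigation, of experiment 3, it had 153 counts, below the 362 to 1497 counts of the experiment 3 libraries used, and its 45.9 CPM lay near the low end of their range. The totals of both were under those of the 17 libraries. Replicate 1 before irrigation held 80.2 CPM of MIR_425, inside the 61.5 to 81.2 CPM of experiment 2, and did not list MIR_5533. The experiment 1 libraries used held 54.1 to 101.6 CPM of MIR_425, which spans that range. The same library held 17.04 CPM of MIR_1792, within the 14.8 to 20.2 CPM of the 2 h libraries and below the 22.0 CPM of replicate 2 before irrigation.

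The 4 left-out libraries listed a minority of the members. Replicate 1 before irrigation listed 59 of 143 (41.3%), replicate 3 before irrigation 38 (26.6%), 3 mM at 24 h replicate 2 listed 26 (18.2%) and 0.1 mM at 24 h replicate 1 listed 25 (17.5%). Of the other 273 shared identifiers they listed 52.7%, 27.1%, 16.1% and 17.2%, in the same order. None of the members was listed by all 4, and 37 were listed by none.

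At the median, a listed member had a count close to its usual one in these libraries. The median ratio of its count to its median count over the 17 libraries was 0.866 in replicate 1 before irrigation, 0.866 in replicate 3 before irrigation, 1.18 in 3 mM at 24 h replicate 2 and 0.862 in 0.1 mM at 24 h replicate 1. In CPM the median ratios were 0.939, 2.01, 7.78 and 2.17 for these libraries, whose totals were 6982894, 3332237, 1180505 and 3086103 counts, all in the same order. Single members ranged more widely. In replicate 1 before irrigation count ratios ran from 0.345 to 6.44, with 51 members inside their range over the 17 libraries and 7 below it. In replicate 3 before irrigation 30 lay inside and 8 below. The 59 members in replicate 1 before irrigation were exactly the 59 with the lowest serial numbers among the 143. Serial numbers appear to follow the order of first listing, and this library is the first column. The match would then follow from the numbering alone.

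**Figure D5:**
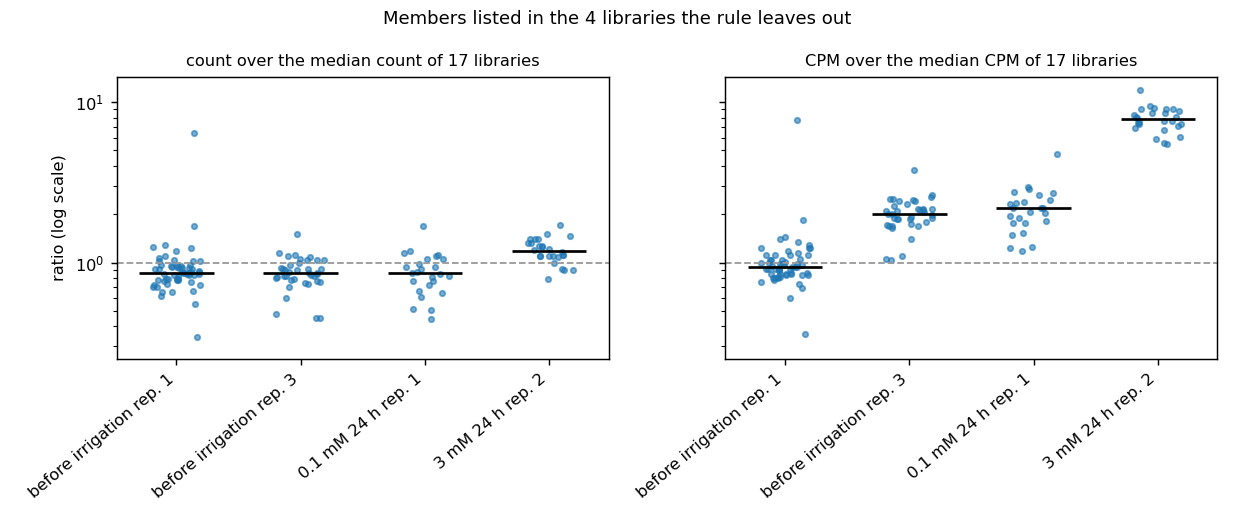
Members listed in the 4 libraries that the rule leaves out, as the ratio of count (left panel) or CPM (right panel) to the median over the 17 libraries (log scale), where each point is a member and bars are medians. Count ratios have medians of 0.862 to 1.18, while CPM ratios have medians of 0.939 to 7.78.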

How the data were processed

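Root small RNA of 18 to 30 bp was sequenced as single-end 50 bp reads, per the labels' protocols. The authors deposited 1 table of raw counts per identifier and library. bcl2fastq and edgeR are named in the submitters' processing notes, and no aligner, counting rule or genome build is given in the sources used here. Columns were matched to samples by their labels. Both columns of 0.1 mM at 24 h that were used (experiments 2 and 3) differ from the description of their sample in the last digit and were matched by title, so that this group rests on the titles. The members and lists were chosen with earlier results of these data known.

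Levels are printed as CPM of the library total, which is the scale of the rule, unless TMM-scaled CPM is named. Tests used edgeR 4.0.16 (quasi-likelihood, TMM factors, R 4.3.3) on the 416 identifiers listed by all 17 libraries, with 7 groups in 1 fit and Benjamini-Hochberg adjustment over the 416, two-sided. All 12 comparisons came from that fit, and the experiments were tested within groups. Differences, SEs and 95% intervals came from limma 3.58.1 on log2 CPM with a prior count of 2. The scripts were tested on simulated data.

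Replicate numbers name the experiment in the labels, which say that it was run 3 independent times. Over the 416 identifiers, deviations from group means correlated by 0.256 on average over 35 same-experiment pairs of libraries (from -0.194 to 0.578, 30 of them over 0.1) and by -0.123 over 71 other pairs. Over the 143 members the average was 0.149 (from -0.596 to 0.633, 19 of 35 over 0.1), against -0.0741. The experiment was also fitted as a block because the labels name it. P-values measure the spread between these pooled libraries.

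Named members were those called in any comparison, the 10 smallest p in each direction for the times, the 2 smallest in each direction for every other comparison, the 5 highest and 5 lowest levels and the 3 identifiers just outside the limit, the 5 largest and 5 smallest CVs, and the 5 smallest p among experiments. Alternatives were other scalings, filters, DESeq2 1.42.0, limma, the block, all 21 libraries and leaving out each library or experiment. Counts are reads without molecular identifiers, so counting error is a lower limit.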

Additional observations from a re-analysis of the deposited data

Results flagged for a closer look

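Within a sampling time, 5 members named in the text had a library far from the others, on TMM-scaled CPM. MIR_743 was at 10.7 in 3 mM at 24 h replicate 1, far below the other libraries at 24 h. MIR_4993 was at 168 and MIR_423 at 210 in water at 2 h replicate 1, each above the rest at 2 h. MIR_4965 was at 182 in 0.1 mM at 24 h replicate 2, above the rest at 24 h, and MIR_1792 was at 23.6 in 0.1 mM at 2 h replicate 2, below the other libraries at 2 h. In all, 11 of 286 groups of libraries were marked in this way (3.85%), and chance marks about 1 in 20.

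Outside the 17 libraries, members had counts in all 4 libraries that no comparison uses: 59 members in replicate 1 before irrigation, 38 in replicate 3 before irrigation, 26 in 3 mM at 24 h replicate 2 and 25 in 0.1 mM at 24 h replicate 1.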

How the results depend on the processing

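For 24 h against 2 h with treatments averaged, the 1 member called became 2 with upper-quartile factors, 2 with the experiment as a replicate block, 4 with DESeq2 (MIR_247, MIR_320, MIR_1792 and MIR_1870), and 0 both without the restriction to identifiers listed throughout and with all 21 libraries. Refits that leave out a library or an experiment gave 0 to 2. RLE factors, column totals, a mean of at least 10 CPM and limma kept the count at 1. The block changed no other call in the 12 comparisons. DESeq2 also called 3 members for 24 h against 2 h with 0.1 mM, and 1 each for 24 h against 2 h with 3 mM, 3 mM against water at 2 h, 3 mM against 0.1 mM at 2 h and 3 mM against 0.1 mM at 24 h. The leave-outs gave 0 to 1 calls for 24 h against 2 h with 3 mM, for ammonium against water, for 3 mM against water at 24 h, for 3 mM against 0.1 mM at 24 h and for the change of the ammonium difference. Apart from MIR_1792 without water at 24 h replicate 2, those calls were MIR_743, which then rested on 1 library of 3 mM at 24 h, assumed to vary like the other groups.

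For the experiments, the 21 members called became 36 with upper-quartile factors, 40 with DESeq2, 0 without the restriction and 0 to 21 in the leave-outs (0 without experiment 1, 12 without experiment 2, 5 without experiment 3). The 143 members would be 78 at a limit of 50 CPM and 209 at a limit of 200 CPM. At 100 TMM-scaled CPM they would be 89, but the limits differ in unit. The TMM-corrected sum of the shared counts was 0.407 to 0.662 of the library total, so 100 on that scale is a lower level than 100 CPM. With all 21 libraries, where a missing identifier counts as 0, the time difference changed sign for MIR_133 (-0.0495), MIR_259 (-0.0496), MIR_4340 (-0.10), MIR_5125 (-0.17) and MIR_5214 (-0.0633), none of them called; the cause was not tested. With column totals, 3 mM minus water at 24 h had a median of -0.30 log2 units over the 416 identifiers, against 0.01 with TMM. The summed share of the members, 24 h minus 2 h, was -0.0197 percentage points of all counts and 0.00719 points of the shared counts. Depth limits the members below 10 CPM most.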
